A study of Mus musculus with 12 samples.

Results

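The interferon-stimulated genes described here are 10 genes taken by name: Ifit1, Ifit2, Ifit3, Isg15, Irf1, Irf7, Irf9, Rsad2, Usp18 and Bst2. All 10 were among the 18876 genes with a value in at least 1 of 12 RNA-seq libraries, and 7 of them had enough counts to be tested. The cells were wild-type mouse brain cells labelled as primary oligodendrocyte progenitor cells, the glial precursors of myelinating oligodendrocytes, treated for 12 h in 4 groups of 3 libraries. Controls received vehicle (DMSO). The second group received 50 µM hemin, the oxidised form of heme. The third received the same hemin with 10 ng/mL interleukin-10 (IL-10), a cytokine that signals through STAT3, and the fourth received hemin, IL-10 and 2.5 µM stattic, a STAT3 inhibitor. All 3 treated groups therefore share hemin, and no group received IL-10 or stattic without it. Below, IL-10 replicates are libraries of hemin with IL-10, and stattic replicates are libraries of hemin with IL-10 and stattic.

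Type I interferons bind a receptor made of IFNAR1 and IFNAR2, whose kinases JAK1 and TYK2 activate transcription factors that join IRF9 in a complex. The complex binds the interferon-stimulated response element (ISRE) of target genes, and a further element of such genes is the gamma-activated site (GAS). Products of the target genes restrict viruses, raise the sensitivity of the cell to further interferon, or damp the response. In brain, microglia, astrocytes and oligodendrocyte lineage cells can all switch on these genes.

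In hemin-treated cells Usp18 and Rsad2 were higher than in vehicle, by 3.99 and 3.45 on the log2 scale, and Ifit2 was lower, by a log2 change of -1.47. Ifit2 was also lower, and Rsad2 higher, with hemin and IL-10 than with vehicle. Ifit2 was lower with hemin, IL-10 and stattic as well, by a log2 change of -2.15, and this was the member call that held in each alternative analysis. No member passed the test when IL-10 was added to hemin or when stattic was added to both. Of the 10 members, 7 had their highest level of all 12 libraries in 1 library, hemin replicate 1. No member passed the test between hemin and vehicle without that library, and likewise none of the 7 without vehicle replicate 3. Without hemin replicate 1 the difference of Usp18 was smaller, at 2.38, while that of Rsad2 was 3.31 and that of Ifit2 -1.75.

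The sequences before the start sites are shown first because the members differ in them. RefSeq promoter windows (GRCm38.p6) were found for 9 of the 10 members and searched over the 250 bases before each start, on both strands, for the letters of the ISRE (GAAA, any 2 bases, GAAA) and of the GAS (TTC, any 3 bases, GAA). Of 32851 such windows in the genome, 2.98% held the ISRE letters and 7.02% the GAS letters. Isg15, Bst2, Rsad2, Ifit3 and Ifit1 held the ISRE letters, and Bst2, Irf1 and Ifit2 held the GAS letters, which in Bst2 overlap the ISRE match. Irf7 and Irf9 held neither in these windows. Usp18 had no window, so its promoter was not searched. Each run below reads 5′ to 3′ on the strand of the gene, with the matched letters in capitals. They lie at chr4:156200850-156200921 (minus strand) for Isg15, chr8:71537562-71537633 (minus) for Bst2 and chr12:26456538-26456597 (minus) for Rsad2. The others lie at chr19:34583348-34583441 (plus) for Ifit3, chr19:34640760-34640838 (plus) for Ifit1, chr19:34550444-34550486 (plus) for Ifit2 and chr11:53769899-53769957 (plus) for Irf1.
Isg15: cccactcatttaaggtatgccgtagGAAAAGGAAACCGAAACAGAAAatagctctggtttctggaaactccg
Bst2: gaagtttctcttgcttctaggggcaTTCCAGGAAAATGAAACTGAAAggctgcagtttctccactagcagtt
Rsad2: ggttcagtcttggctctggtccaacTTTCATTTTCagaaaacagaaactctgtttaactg
Ifit3: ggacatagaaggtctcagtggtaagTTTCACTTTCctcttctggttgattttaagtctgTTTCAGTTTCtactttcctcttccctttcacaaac
Ifit1: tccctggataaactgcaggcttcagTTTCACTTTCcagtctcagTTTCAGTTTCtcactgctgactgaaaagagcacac
Ifit2: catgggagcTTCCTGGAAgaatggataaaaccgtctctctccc
Irf1: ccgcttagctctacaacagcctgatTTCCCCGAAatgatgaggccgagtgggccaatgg
Isg15 carries 3 overlapping ISRE matches, and Ifit3, Ifit1 and Bst2 carry 2 each. Of the tested members with the ISRE letters, Rsad2 was called higher with hemin and Bst2 and Ifit3 were not called. Of the members with the GAS letters alone, Ifit2 was called lower and Irf1 was not called. A match is a description of the letters and not evidence that a factor bound there.

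All members were expressed at low levels. Levels of different genes are compared as FPKM, fragments scaled to library size and divided by transcript length. In vehicle the order was Irf1 at 4.95 ± 0.85 FPKM (SD, n = 3 in each group throughout), Ifit2 at 4.08 ± 1.94, Bst2 at 2.31 ± 1.82, Irf9 at 1.10 ± 1.02 and Isg15 at 0.987 ± 0.266. Ifit3, Usp18, Rsad2 and Irf7 followed, at 0.373 ± 0.311 down to 0.103 ± 0.131 FPKM, and Ifit1 was not listed in any vehicle library. Neighbours in this order differed by less than the larger of their SDs, except Isg15 and Ifit3. With hemin the order became Bst2 at 11.1 ± 11.4 FPKM, Irf1 at 5.62 ± 0.898, Usp18 at 3.04 ± 3.54 and Isg15 at 2.82 ± 3.05, followed by Irf7 at 1.79 ± 2.33. Ifit2 was above only Ifit3 and Ifit1 there, at 1.36 ± 0.404 FPKM. The SDs of Bst2, Usp18, Isg15, Irf7 and Ifit1 exceeded their means, and in each the same hemin library was high.

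The lowest library held 9404448 expected counts and the highest 10266653. The values below are CPM, counts divided by a library size scaled with TMM factors, and at this depth 3 counts in a library correspond to about 0.3 CPM (0.274 CPM in vehicle replicate 2). Tests are edgeR quasi-likelihood tests over all 12 libraries, with Benjamini-Hochberg adjustment over 13967 genes, and a gene is called under an adjusted p of 0.05. The labels do not say whether replicates are separate cultures or animals, so the p-values measure the spread between these libraries, which may be technical.

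The members that encode regulators were Irf1, Irf7 and Irf9. Irf1 encodes an early-acting interferon regulatory factor that acts on promoters itself. It measured 10.9, 7.86 and 8.95 CPM in the vehicle libraries, 11.9, 9.84 and 12.5 with hemin, 5.72, 8.11 and 6.36 with hemin and IL-10, and 9.33, 4.92 and 12.2 with stattic added. The 3 IL-10 replicates lay below the 3 hemin replicates, and no other pair of groups was separated in this way for Irf1 among the main comparisons. The difference between hemin with IL-10 and hemin was -0.76 (log2, SE 0.34, 95% CI -1.5 to -0.03), with an unadjusted p of 0.0437 and an adjusted p of 0.999, so it was not called. Against vehicle, Irf1 differed with hemin by 0.30 (log2, 95% CI -0.42 to 1.03, adjusted p = 0.552).

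Irf7 encodes the factor that amplifies interferon production. It measured 0.371, 0 and 0.0952 CPM in vehicle and 7.64, 0.717 and 0.701 CPM with hemin. It measured 0.540, 1.26 and 0.404 with IL-10, and 0.943, 0.628 and 0.600 with stattic. Hemin replicate 1 stood far above the next highest library, IL-10 replicate 2 at 1.26 CPM, and each of the 9 treated libraries was above each vehicle library. IL-10 replicate 3 and vehicle replicate 1 had 4 counts each, so library scaling alone set the order of these libraries. Irf7 had 10 or more counts in 2 libraries and did not pass the low-count filter. In the fit with no filter the log2 change between hemin and vehicle was 4.15 (SE 1.09, adjusted p = 0.0194), and without hemin replicate 1 it was 2.07 (SE 0.94, adjusted p = 0.171).

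Irf9 encodes the DNA-binding part of the ISRE-binding complex. It measured 5.01, 0.731 and 1.52 CPM in vehicle, 6.94, 1.13 and 4.11 with hemin, 2.16, 2.21 and 0.909 with IL-10, and 3.46, 4.09 and 1.08 with stattic. Every pair of groups overlapped. The hemin and vehicle difference was 0.74 (log2, SE 0.77, 95% CI -0.93 to 2.42, adjusted p = 0.526). All 12 of its deposited counts are fractional, which is how reads shared between genes are split, and its level is to that extent uncertain.

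Ifit1, Ifit2 and Ifit3 encode proteins with tetratricopeptide repeats, of a family with members that bind viral or foreign RNA and block its translation. Of the 3, Ifit2 alone was called in any comparison. Ifit2 measured 13.8, 8.04 and 21.7 CPM in the vehicle libraries, 7.14, 4.0 and 4.61 with hemin, 4.53, 4.95 and 1.82 with IL-10, and 4.82, 2.30 and 2.64 with stattic. Each of the 9 treated libraries was below the lowest vehicle library, so vehicle did not overlap any treated group. Ifit2 fell by 1.47 with hemin (log2, SE 0.48, 95% CI -2.51 to -0.42, adjusted p = 0.048). It fell by 1.95 with hemin and IL-10 (95% CI -3.01 to -0.88, adjusted p = 0.0175) and by 2.15 with stattic added (95% CI -3.23 to -1.07, adjusted p = 0.0107). These 3 comparisons use the same vehicle libraries.

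The fall of Ifit2 with all 3 agents was called in 24 of 24 alternative analyses. With hemin alone the call held in 16 of 24, and leaving out 1 library ended it 7 times. Without vehicle replicate 3, the highest, the log2 change was -1.06 (adjusted p = 0.194). It was -1.50 without vehicle replicate 1 (adjusted p = 0.104), -1.75, -1.30 and -1.38 without hemin replicates 1, 2 and 3 (adjusted p = 0.0546, 0.16 and 0.118), and -1.47 without IL-10 replicate 1 or 2 (adjusted p = 0.0563 and 0.062). The direction was the same in each of these fits. With hemin and IL-10 the call ended without vehicle replicate 1 (-1.97, adjusted p = 0.0534) or vehicle replicate 3 (-1.52, adjusted p = 0.0797).

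Ifit3 measured 1.21, 0.274 and 0.381 CPM in vehicle, 2.38, 0.922 and 0.501 with hemin, 0.755, 1.16 and 0.303 with IL-10, and 0.838, 0.733 and 0.600 with stattic. The groups overlapped, and the hemin and vehicle difference was 1.02 (log2, SE 0.72, 95% CI -0.56 to 2.59, adjusted p = 0.342). Ifit3b, a near-identical neighbour of Ifit3, averaged 0.218 CPM in vehicle and 0.401 CPM with hemin, and reads of the pair can be split between them. Ifit1 had 11 counts in all 12 libraries together, 7 of them in hemin replicate 1, at 0.694 CPM. It had no counts in the 3 vehicle libraries, which allows up to 0.0931 CPM over that group by 3 counts. The hemin mean of 0.231 CPM was 2.48-fold this limit. Such limits cover counting error only.

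Rsad2 encodes viperin, an enzyme that makes a chain-terminating nucleotide. It measured 1.02, 0 and 0.571 CPM in vehicle, 6.94, 8.71 and 2.10 with hemin, 15.4, 10.3 and 1.51 with IL-10, and 9.33, 4.92 and 0.840 with stattic. Replicate 3 was the lowest of each treated group, and stattic replicate 3 lay below vehicle replicate 1. Rsad2 rose by 3.45 with hemin (log2, SE 1.12, 95% CI 1.02 to 5.88, adjusted p = 0.0458) and by 4.07 with hemin and IL-10 (SE 1.13, 95% CI 1.61 to 6.52, adjusted p = 0.0257). With stattic added the difference from vehicle was 3.22 (95% CI 0.80 to 5.65, adjusted p = 0.0523) and was not called.

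The Rsad2 call with hemin held in 11 of 24 alternative analyses, and that with IL-10 in 16 of 24. The hemin difference was 4.04 by limma-voom (adjusted p = 0.0915) and 3.33 in edgeR with library totals (adjusted p = 0.0526), not called by either. The Rsad2 calls also depended on single libraries. Against vehicle, the hemin difference was 4.33, 2.87 and 3.51 without vehicle replicates 1, 2 and 3 (adjusted p = 0.0753, 0.121 and 0.121). It was 3.31 and 3.07 without hemin replicates 1 and 2 (adjusted p = 0.0884 and 0.129), and 3.45 without IL-10 replicate 2 or stattic replicate 2 (adjusted p = 0.0661 and 0.0529). Without hemin replicate 1 the size of the Rsad2 difference stayed close to 3.45, the value with all libraries. With IL-10, the call ended without vehicle replicate 1, 2 or 3 (4.96, 3.51 and 4.14, adjusted p = 0.058, 0.0729 and 0.0805) and without IL-10 replicate 1 or 2 (3.44 and 3.98, adjusted p = 0.0762 and 0.0665). With stattic, the difference was called without IL-10 replicate 3 (3.22, adjusted p = 0.0339) or stattic replicate 3 (3.72, adjusted p = 0.0274).

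Bst2 encodes tetherin, a membrane protein that holds budding virus particles on the cell. It measured 2.69, 1.19 and 0.476 CPM in vehicle, 16.8, 4.92 and 1.5 with hemin, 3.24, 3.9 and 1.41 with IL-10, and 4.61, 1.47 and 2.76 with stattic. Hemin replicate 3 lay inside the vehicle range while hemin replicate 1 was the highest of all libraries. The hemin and vehicle difference of 2.40 (log2, SE 0.84, 95% CI 0.57 to 4.23, adjusted p = 0.0614) was not called by edgeR, and DESeq2 called it (2.41, adjusted p = 0.0147). Without hemin replicate 3 it was called, at 2.88 (adjusted p = 0.0276), and without hemin replicate 1 it was 1.13.

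Isg15 encodes a ubiquitin-like protein that is joined to other proteins and also secreted. It measured 0.649, 0.640 and 0.381 CPM in vehicle, 3.97, 0.922 and 0.401 with hemin, 0.647, 0.526 and 0.202 with IL-10, and 0.943, 0.838 and 0.960 with stattic. The 3 stattic replicates lay within a narrow range above the vehicle and IL-10 libraries, at 8 to 9 counts against up to 7. Isg15 had 10 or more counts in 1 library and did not pass the filter. In the fit with no filter its hemin and vehicle difference was 1.61 (log2, SE 0.76, adjusted p = 0.159), and 0.21 without hemin replicate 1 (adjusted p = 0.909). Its stattic and IL-10 difference was 0.96 (SE 0.80, adjusted p = 0.925).

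Usp18 encodes the protease that removes ISG15 from proteins and blocks the type I interferon receptor, a brake on the pathway. It measured 0.649, 0.183 and 0.0952 CPM in vehicle, 12.0, 2.46 and 0.902 with hemin, 1.19, 2.11 and 0.909 with IL-10, and 1.57, 0.943 and 1.44 with stattic. All 9 treated libraries were above all 3 vehicle libraries, and hemin replicate 1, at 12.0 CPM, was followed by hemin replicate 2 at 2.46 CPM. Usp18 rose by 3.99 with hemin (log2, SE 0.95, 95% CI 1.93 to 6.06, adjusted p = 0.0134). This call ended without hemin replicate 1 (2.38, adjusted p = 0.0554), vehicle replicate 2 (3.74, adjusted p = 0.055) or vehicle replicate 3 (3.59, adjusted p = 0.0564). Against vehicle the differences with IL-10 and with stattic were 2.13 (95% CI 0.05 to 4.21, adjusted p = 0.133) and 2.04 (95% CI -0.05 to 4.14, adjusted p = 0.138), neither called.

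**Figure D1:**
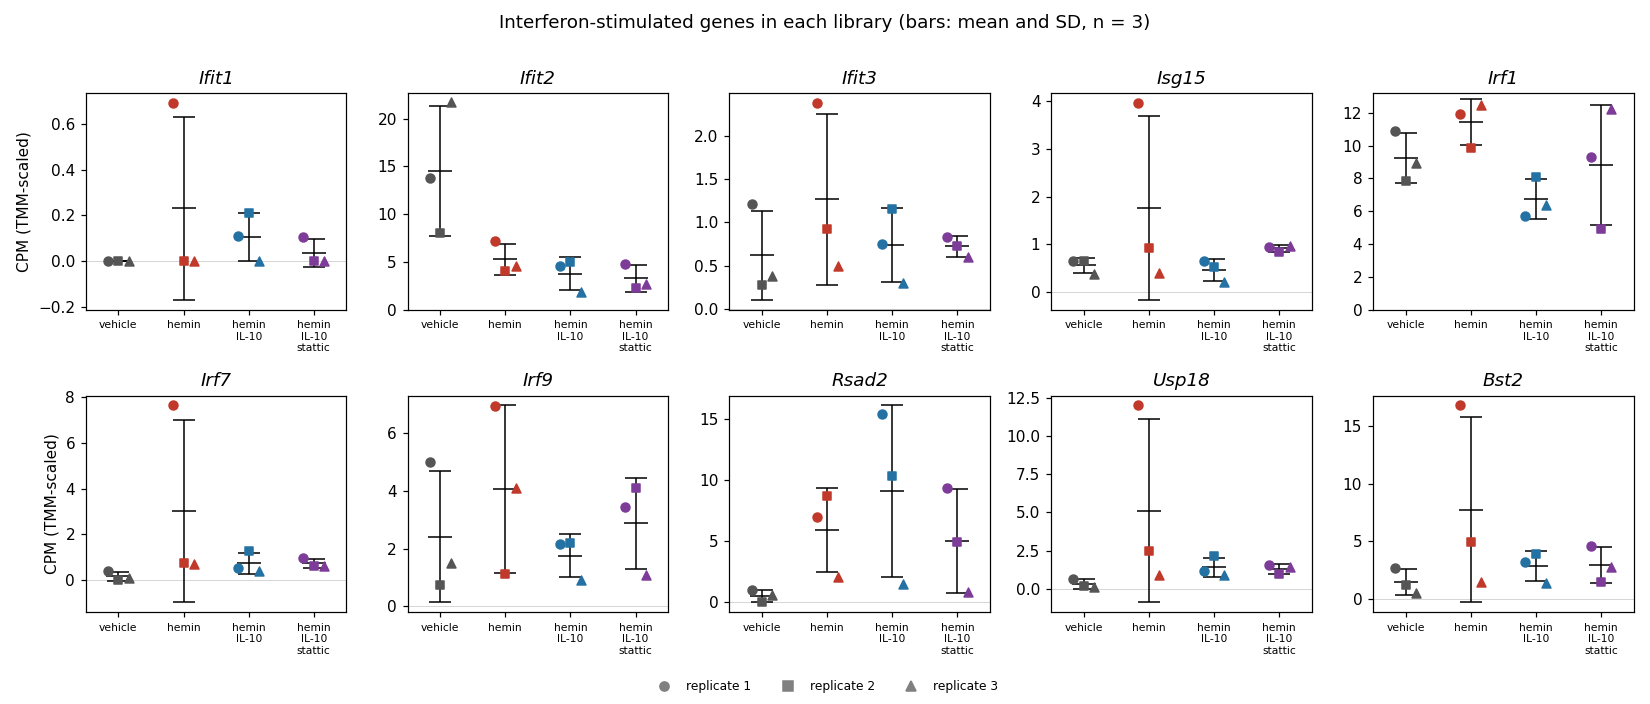
Level of each of the 10 interferon-stimulated genes in CPM (vertical axis, its own scale for each gene) by treatment group. Points are libraries, shaped by replicate number, and bars are the mean and SD of 3 libraries. Hemin replicate 1 is the highest point for 7 genes, while Ifit2 is highest in the vehicle libraries, at 8.04 to 21.7 CPM, and Rsad2 is highest in IL-10 replicate 1, at 15.4 CPM.

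Hemin against vehicle asks which members differ with hemin. Of the 7 members tested, 2 rose and 1 fell, where 20.9% of all genes tested were called, 11.7% higher and 9.15% lower. The groups did not overlap for the same 3 of 7 members, against 50.1% of all genes. The median log2 change was 1.02 over the 7 members and 0.03 over all genes. Since a gene can pass the filter through the group where it is high, these counts describe the members and were not tested against other genes. Without hemin replicate 1 the median over the members was 0.27 and none was called, with Ifit2 at -1.75 (-1.47 with all libraries), Rsad2 at 3.31 (3.45) and Usp18 at 2.38 (3.99). Of the same 7, none was called without vehicle replicate 3, and 1 was in each fit that omitted vehicle replicate 1 or 2, hemin replicate 2 or IL-10 replicate 2. The other omissions gave 2 or 3. Irf7 passed the filter in 10 of these 12 fits and was called higher with hemin in 8 of them, by 4.15 to 5.67. It was not tested without hemin replicate 1 or without IL-10 replicate 2. Hemin replicate 1 held 77 of its 91 hemin counts and is in each of these 8 fits, so the calls are not separate observations.

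Hemin with IL-10 against hemin asks what IL-10 changes in hemin-treated cells. No member was called by edgeR, and no gene of the 13967 was (0.0%), with 337 genes at an unadjusted p under 0.05. DESeq2 called 3 genes and limma-voom 0, none of them a member. Irf1 and Usp18 were the 2 of 7 members with an unadjusted p under 0.05. Irf1 was the member whose groups did not overlap, where 8.68% of all genes did not. For Usp18 the difference was -1.86 (log2, 95% CI -3.66 to -0.07, unadjusted p = 0.0429, adjusted p = 0.999), and without hemin replicate 1 it was -0.25. The median over the members was -0.77 and without that library -0.18, beside -0.01 and 0.0 over all genes.

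Adding stattic to hemin and IL-10 asks which members differ once a STAT3 inhibitor is present. By edgeR again no member and no gene was called (0.0%), with 523 genes and 0 members at an unadjusted p under 0.05, and DESeq2 and limma-voom called 0 genes. The groups overlapped for each of the 7 members tested, where 5.36% of all genes did not overlap. Differences ranged from -0.84 for Rsad2 (95% CI -2.90 to 1.21) to 0.71 for Irf9 (95% CI -1.01 to 2.44), on the log2 scale. These intervals are wide, so changes of 2-fold or more in either direction remain inside them for Rsad2, Usp18, Bst2, Irf9 and Ifit3.

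The 2 groups with IL-10 were also compared with the vehicle libraries that served the hemin comparison. With hemin and IL-10, Rsad2 was higher and Ifit2 lower, 2 of 7 members, where 21.0% of all genes were called. Without vehicle replicate 1 or 3 none was called, and without vehicle replicate 2 or IL-10 replicate 1 or 2 only 1 was. With stattic added, Ifit2 alone was called, where 24.9% of all genes were, and Rsad2 was the other member called without IL-10 replicate 3 or stattic replicate 3. Vehicle and treated libraries did not overlap for Ifit2 and Usp18 in both comparisons and for Rsad2 with IL-10, against 49.2% of all genes with IL-10 and 41.1% with stattic. The median over the 7 members was 0.24 and 0.25, beside 0.0 and 0.10 over all genes.

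**Figure D2:**
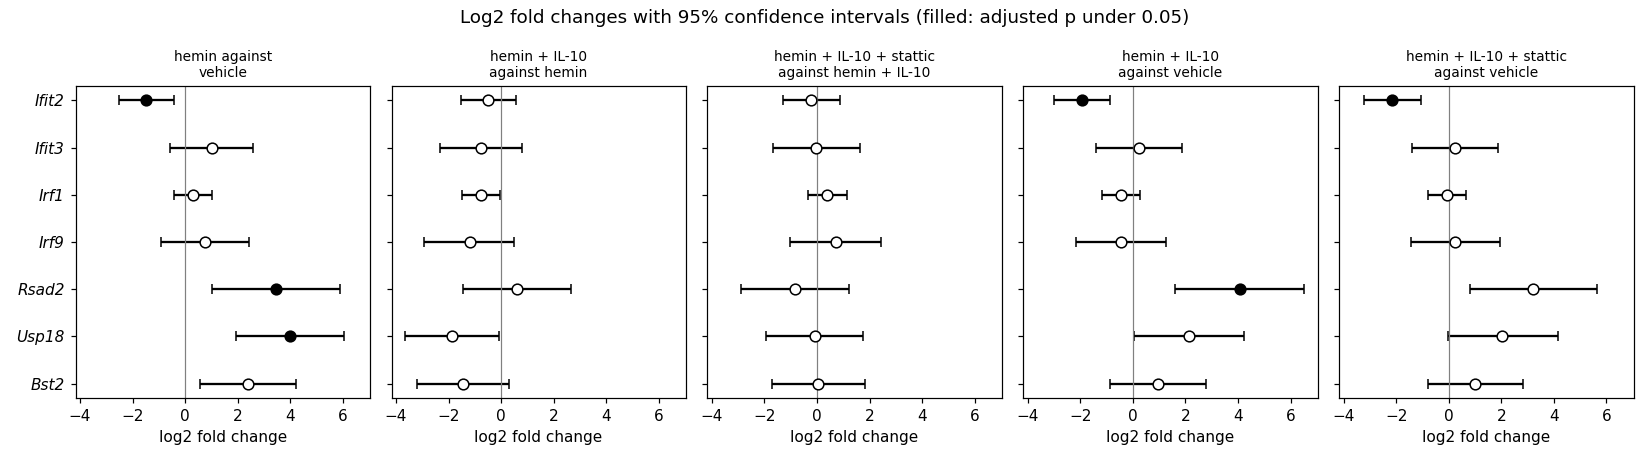
Log2 fold change (horizontal axis) of the 7 members tested, 1 panel per comparison, with 95% confidence intervals. Filled points have an adjusted p under 0.05. Ifit2 lies below 0 in the 3 comparisons with vehicle, and no point is filled where IL-10 or stattic was the agent added.

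A list of 124 other interferon pathway symbols, some of them old and new names of the same gene, was read in the same fit. Of these, 104 were listed and 66 tested. With hemin, 13 were higher and 3 lower than vehicle, where 11.7% of all genes were higher and 9.15% lower. With IL-10 added 9 were higher and 1 lower, and with stattic also added 10 were higher and 3 lower, where 21.0% and 24.9% of all genes were called. None was called by edgeR, DESeq2 or limma-voom when IL-10 was added to hemin or stattic to both, with 7 and 1 of 66 at an unadjusted p under 0.05. The median change with hemin was 0.73 on the log2 scale, and 0.37 without hemin replicate 1, where 11 were higher and 3 lower. The count of 16 with hemin dropped to 9, 8 and 8 without vehicle replicates 1, 2 and 3, and to 7 and 9 without hemin replicates 2 and 3. With IL-10, leaving out vehicle replicate 1, 2 or 3 took the count of 10 to 4, 5 or 4, leaving out IL-10 replicate 1 or 2 took it to 6 or 3, and leaving out stattic replicate 3 raised it to 16. The count of 13 with stattic was 6, 6 and 5 without those vehicle replicates and 8 without stattic replicate 2.

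Among ligands, 8 genes were listed and 1, Ifnab, was tested. Ifnb1, the gene for interferon beta, had 2 counts in all, at 0.102 and 0.1 CPM in hemin replicates 2 and 3. Ifnab, an interferon alpha gene, had no counts in vehicle and measured 0.0992, 1.23 and 1.5 CPM with hemin, 0.324, 0.632 and 1.41 with IL-10, and 0.419, 1.89 and 0.480 with stattic. Hemin replicate 1, which led for 7 members, was the lowest treated library for Ifnab. The means were 10.1-fold, 8.49-fold and 9.97-fold the vehicle limit of 0.0931 CPM, with adjusted p of 0.0246, 0.031 and 0.0227. With no counts in vehicle, Ifnab passed the low-count filter only through treated libraries, where it was high, and these p-values take no account of this. The call with hemin ended without any 1 of the vehicle replicates or without hemin replicate 2 or 3 (adjusted p = 0.0603 to 0.0691). With IL-10 it ended without any vehicle replicate or IL-10 replicate 2 or 3 (adjusted p = 0.0651 to 0.0829), and with stattic without any vehicle replicate or stattic replicate 2 (adjusted p = 0.0571 to 0.0669).

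Of the receptors and their kinases, none of 7 tested was called by edgeR, DESeq2 or limma-voom in any of the 5 comparisons, and at most 1 of 7 had an unadjusted p under 0.05 in any of them. With vehicle and hemin, Ifnar1 averaged 99.7 ± 1.83 and 63.8 ± 11.4 CPM, Ifnar2 16.5 ± 1.6 and 24.2 ± 4.76 CPM, and Jak1 161.0 ± 25.4 and 174.0 ± 26.7 CPM. Ifngr1, Ifngr2 and Tyk2 averaged between 14 and 23.7 CPM in each group. Of the 7 STAT and IRF factors tested, Stat2 and Irf3 were not called with hemin. Irf8 and Irf4, factors of immune cells, were the 2 of 7 that rose with hemin, where 11.7% of all genes were called higher. Irf8 measured 1.95, 1.28 and 1.71 CPM in vehicle and 8.92, 5.94 and 5.91 with hemin, a rise of 2.06 (log2, SE 0.36, adjusted p = 0.00307). Irf4 rose by 3.32 (SE 0.80, adjusted p = 0.0139) from a mean of 0.122 to 1.35 CPM. Against vehicle, Irf8 was also higher with IL-10 and with stattic, by 1.74 and 1.98 (adjusted p = 0.0069 and 0.00351).

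Of 13 nucleic acid sensing genes tested, 3 rose with hemin and 1 fell, where 20.9% of all genes were called. Tbk1, a kinase that activates IRF3, measured 33.7, 37.5 and 34.6 CPM in vehicle and 63.0, 98.2 and 95.5 with hemin, a rise of 1.28 (log2, SE 0.28, adjusted p = 0.0102). Its relative Ikbke rose by 1.42 (adjusted p = 0.0436) and Dhx58, a helicase that modulates RNA sensing, by 1.98 (adjusted p = 0.0213). Mavs, the mitochondrial adaptor of the RNA sensors, fell by 1.09 (adjusted p = 0.0209), from 36.3 ± 3.05 to 17.1 ± 4.92 CPM. Tbk1 and Mavs therefore moved in opposite directions, with no overlap between hemin and vehicle for either. Tbk1 and Dhx58 were also higher with IL-10 than with vehicle, by 1.19 (adjusted p = 0.0137) and 1.66 (adjusted p = 0.0451), as was Cgas, the DNA sensor, by 1.41 (adjusted p = 0.0454). The call of Tbk1 with IL-10 needed vehicle replicates 1 and 3 and IL-10 replicate 2 (adjusted p of up to 0.0588 when 1 was omitted). Those of Dhx58 and Cgas ended when any 1 IL-10 replicate was omitted, and when vehicle replicate 1 or 2 or hemin replicate 3 was. Dhx58 also needed vehicle replicate 3 and hemin replicates 1 and 2 (up to 0.149, and 0.143 for Cgas).

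Of 23 antiviral effectors tested, 5 rose with hemin and 1 fell, where 20.9% of all genes were called. Cxcl10, a chemokine that attracts T cells, measured 1.11, 1.01 and 0.0952 CPM in vehicle, 24.1, 27.5 and 31.1 with hemin, 9.39, 13.6 and 7.47 with IL-10, and 6.92, 4.09 and 12.0 with stattic. It was evenly high over the hemin libraries, and hemin replicate 1 was the lowest of the 3. It rose by 5.19 with hemin (log2, SE 0.62, 95% CI 3.84 to 6.54, adjusted p = 0.000462). Every IL-10 and stattic library lay between the vehicle and hemin libraries, and hemin with IL-10 differed from hemin by -1.44 (95% CI -2.53 to -0.34, unadjusted p = 0.0142, adjusted p = 0.999), not called. Isg20, an exonuclease that degrades RNA, measured 0.835, 0.731 and 1.05 CPM in vehicle and 12.2, 17.8 and 5.21 with hemin, a rise of 3.74 (SE 0.67, adjusted p = 0.00357). Against vehicle, Isg20 was also higher with IL-10 and with stattic, by 4.22 and 3.18 (adjusted p = 0.00218 and 0.00668). So was Cxcl10, by 3.75 and 3.35 (adjusted p = 0.00218 and 0.00337).

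Ifi30, a lysosomal reductase of antigen processing, rose by 2.02 with hemin (log2, adjusted p = 0.0111), and Ifit1bl1, a relative of Ifit1, by 3.27 (adjusted p = 0.0251). Ifi35 rose by 2.44 (adjusted p = 0.0467) and was called in 6 of the 21 alternatives that tested it. Samhd1, which depletes nucleotides, fell by 0.89 (adjusted p = 0.036), from 36.4 ± 4.31 to 19.7 ± 5.21 CPM. Mx2, a dynamin-like antiviral protein, rose with stattic against vehicle, by 1.78 (adjusted p = 0.00944), from 7.05 ± 1.83 to 24.3 ± 10.2 CPM. Its differences from vehicle with hemin and with IL-10 were 1.06 and 0.72 (adjusted p = 0.0746 and 0.215), neither called. When stattic was added to hemin and IL-10, Mx2 differed by 1.06 (adjusted p = 0.921), also not called. None of 7 interferon-inducible GTPases tested was called by edgeR or limma-voom in any comparison, at most 2 had an unadjusted p under 0.05, and DESeq2 called 1 with hemin and 1 with IL-10 against vehicle. Cxcl10, Isg20, Irf8, Tbk1, Ifi30 and the phosphatase gene Ptpn6 were called between hemin and vehicle in each of 24 alternatives, which none of the 3 called members was. Cxcl10, Isg20 and Irf8 were also called in each of 24 alternatives against vehicle with IL-10 and with stattic.

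Of 8 feedback regulators tested, 2 rose with hemin and 1 fell, where 20.9% of all genes were called. Ptpn6 rose by 2.84 (log2, SE 0.55, adjusted p = 0.00518), from 0.617 ± 0.292 to 4.49 ± 1.42 CPM. Socs3, an inhibitor of cytokine receptors, rose by 1.35 (SE 0.35, adjusted p = 0.018), from 11.7 ± 2.88 to 30.0 ± 4.44 CPM. Ptpn11, which encodes the phosphatase SHP2, fell by 0.95 (adjusted p = 0.0248), from 308.0 ± 19.8 to 160.0 ± 15.2 CPM. With stattic against vehicle, 2 of the 8 rose and 2 fell, where 24.9% of all genes were called. In that comparison Ptpn6 rose by 2.29 (adjusted p = 0.0124) and Socs1 by 1.95 (adjusted p = 0.0488). There Pias1 fell by 0.71 (adjusted p = 0.0292) and Ptpn11 by 0.79 (adjusted p = 0.0459). These 4 calls held in 23, 6, 17 and 10 of 24 alternatives. That of Ptpn6 ended only when vehicle replicate 3 was omitted (adjusted p = 0.0506). That of Pias1 needed each vehicle replicate and stattic replicates 1 and 2 (adjusted p of up to 0.0836 when 1 was omitted). That of Ptpn11 needed each vehicle and hemin replicate, IL-10 replicate 2 and stattic replicates 2 and 3 (up to 0.133). That of Socs1 ended in 10 of the 12 fits with a library omitted, all but those without IL-10 replicate 3 or stattic replicate 3 (up to 0.151). With hemin and with IL-10, Socs1 differed from vehicle by 1.84 and 1.78 (adjusted p = 0.0652 and 0.0739), not called. Pias1 differed there by -0.4 and -0.57 (adjusted p = 0.19 and 0.072), not called either. When stattic was added to hemin and IL-10, the differences were 0.17 for Socs1 and -0.14 for Pias1.

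The other pathway calls between hemin and vehicle ended when single libraries were left out, with the direction the same. Dhx58 was not called without any 1 vehicle replicate or hemin replicate 1 or 3 (adjusted p = 0.0529 to 0.088). Ifit1bl1, Mavs and Samhd1 were not called without any 1 vehicle replicate or hemin replicate 2 or 3, at adjusted p of up to 0.0837, 0.0807 and 0.126. The call of Irf4 depended on hemin replicate 2 and on vehicle replicates 1 and 3 (up to 0.0622 when 1 was omitted), and that of Socs3 on replicates 2 and 3 of both groups (up to 0.0785). The call of Ptpn11 ended without any 1 of the 6 vehicle and hemin libraries (up to 0.0824). Ikbke and Ifi35 lost their calls in 9 of the 12 fits with a library omitted (adjusted p of up to 0.135 and 0.195). Both needed each vehicle replicate, hemin replicates 1 and 2, IL-10 replicates 1 and 2 and stattic replicate 1, Ikbke also IL-10 replicate 3, and Ifi35 also stattic replicate 2.

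**Figure D3:**
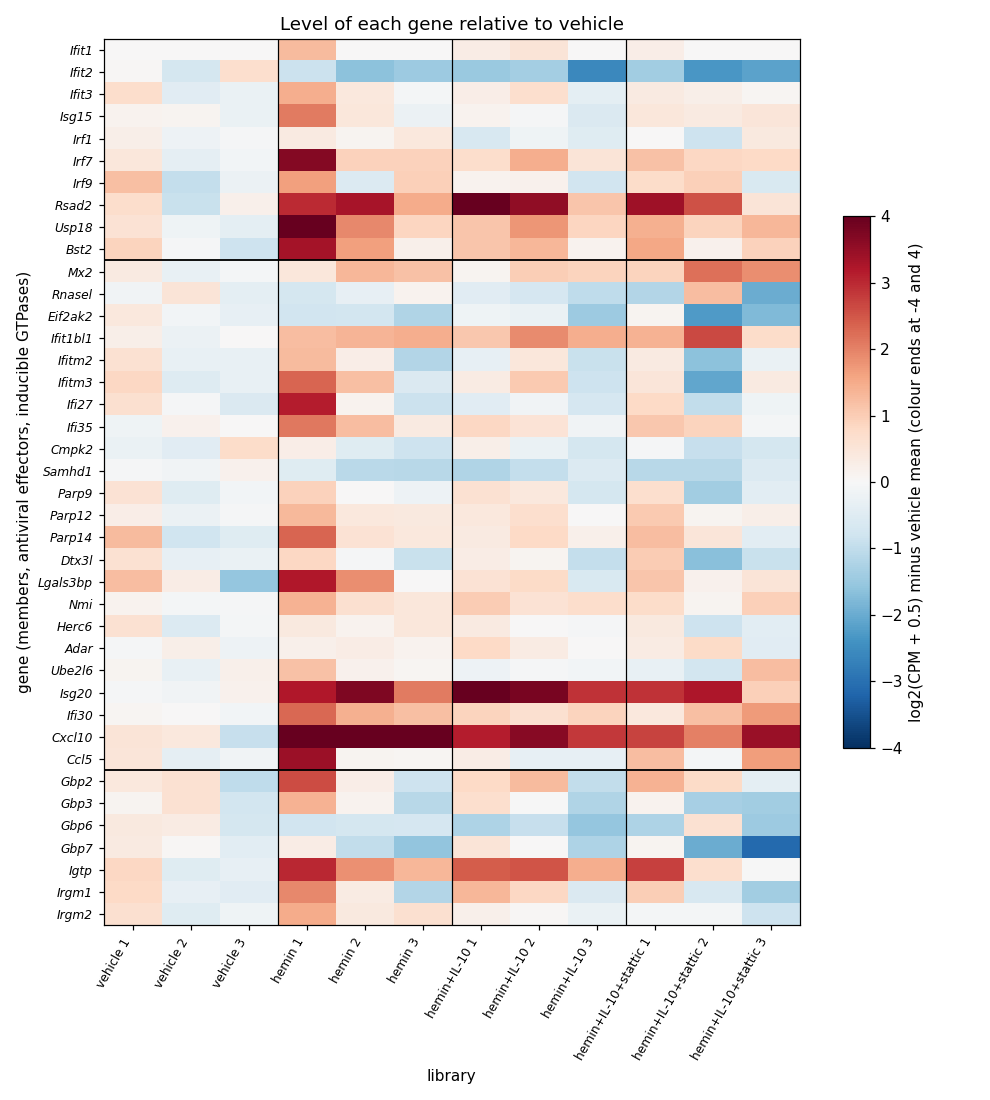
Level of the 10 members and of the tested antiviral effectors and inducible GTPases in each library, as log2(CPM + 0.5) minus the vehicle mean (colour, ending at -4 and 4). Rows are genes and columns are the 12 libraries. The column of hemin replicate 1 is red for most rows, while Cxcl10 and Isg20 are red in all 9 treated libraries.

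Hemin replicate 1 stood apart for a set of genes wider than the members. Ifit1, Ifit3, Isg15, Irf7, Irf9, Usp18 and Bst2 had their highest level there. So did 26 of 42 antiviral effectors listed, 10 of 15 GTPases and 46 of 104 other pathway genes, against 6.56% of all genes listed. A few rows of the heat map show its size, chosen after their values were seen. Ifi27 measured 37.6 CPM there and 1.68 to 7.02 CPM in the other libraries, Oasl2 5.45 against 0.0914 to 1.02, and Ccl5 7.64 against 0.0914 to 1.92. Among the 8 ligands and 8 feedback regulators listed, 1 each was highest in that library.

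By a fixed rule, the 5 other genes most like the members were named: Parp12, Prom1, Pros1, Prkcd and Lgals3bp. Their log2 levels had Pearson correlations of 0.91, 0.87, 0.85, 0.85 and 0.84 with the mean standardised level of the 7 members tested, over 12 libraries and among 10997 candidate genes. All 5 were highest in hemin replicate 1, so the correlations share that library. Parp12, an ADP-ribosyltransferase, measured 27.7 CPM there and 9.41 to 23.2 CPM elsewhere, and Lgals3bp, a secreted glycoprotein, 33.6 CPM there and 0.762 to 12.8 CPM elsewhere. Both are on the interferon pathway list.

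Summed markers of microglia and macrophages, and of vascular cells and fibroblasts, were also highest in that library. Of the other lists, 0 of 7 astrocyte, 0 of 6 myelin and 1 of 6 neuronal markers were highest there. The 14 markers of microglia and macrophages summed to 28.5, 38.6 and 9.24 CPM in vehicle, 190.0, 78.7 and 55.8 with hemin, 61.0, 32.4 and 27.1 with IL-10, and 80.6, 176.0 and 84.9 with stattic. Of these, 8 were highest in hemin replicate 1, with C1qa at 30.5 CPM and Aif1 at 4.56 CPM. Another 4 were highest in stattic replicate 2, and 1 each in stattic replicate 3 and IL-10 replicate 2. Tmem119 was at 0 in vehicle replicates 1 and 2, and Aif1 in vehicle replicate 3 and IL-10 replicate 3. Stattic replicate 2 had nearly the same microglial sum, with C1qa at 28.8 CPM, but Bst2 at 1.47 CPM, Irf7 at 0.628 CPM and Usp18 at 0.943 CPM, in the range of the other stattic replicates or below it. Irf9, at 4.09 CPM, was highest of the stattic group there. These members were chosen after their values were seen. The 10 markers of endothelial and mural cells and fibroblasts summed to 7.43 to 22.7 CPM in vehicle, 188.0, 68.0 and 72.4 with hemin, 35.6 to 67.3 with IL-10 and 46.1 to 80.7 with stattic, and 6 were highest in hemin replicate 1. Cldn5 of that list was at or below 0.24 CPM throughout. With hemin, 4 of 13 microglial and 6 of 9 vascular and fibroblast markers tested were called higher than in vehicle, where 11.7% of all genes were. DESeq2 called 10 of the 13 microglial markers, where it called 28.0% of all genes. In the edgeR test 11 had an unadjusted p under 0.05, as had 35.4% of all genes. Against vehicle, edgeR called 1 of 13 microglial and 3 of 9 vascular markers higher with IL-10, and 7 and 5 with stattic. Of all genes, 12.1% were called higher with IL-10 and 14.7% with stattic. In bulk RNA, more cells of a type and more RNA per cell cannot be told apart, and the part of these cells in the levels of the members was not tested.

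The markers of the labelled cell type were present in every library. The 8 progenitor markers, Pdgfra and Olig2 among them, summed to 4620 to 6520 CPM in vehicle and 1740 to 2520 with hemin. Their sums were 1370 to 2280 CPM with IL-10 and 715 to 1810 with stattic. By edgeR, 3 of 8 were called lower than in vehicle with hemin, 6 with IL-10 and 4 with stattic. Of all genes, 9.15%, 8.81% and 10.2% were called lower in these comparisons. The medians over the markers were -2.15, -2.09 and -2.1 on the log2 scale. With hemin, 1 of 7 astrocyte markers was called lower, 1 of 6 neuronal markers higher, and 0 of 5 myelin markers by edgeR, DESeq2 or limma-voom, with 1 of 5 at an unadjusted p under 0.05. The 7 astrocyte markers summed to 842 to 6220 CPM and the 6 myelin markers to 304 to 10700 CPM across the libraries. The lowest myelin sum was in hemin replicate 1 and the highest in stattic replicate 2. The 6 neuronal markers summed to 605 to 1100 CPM and overlapped between all groups.

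**Figure D4:**
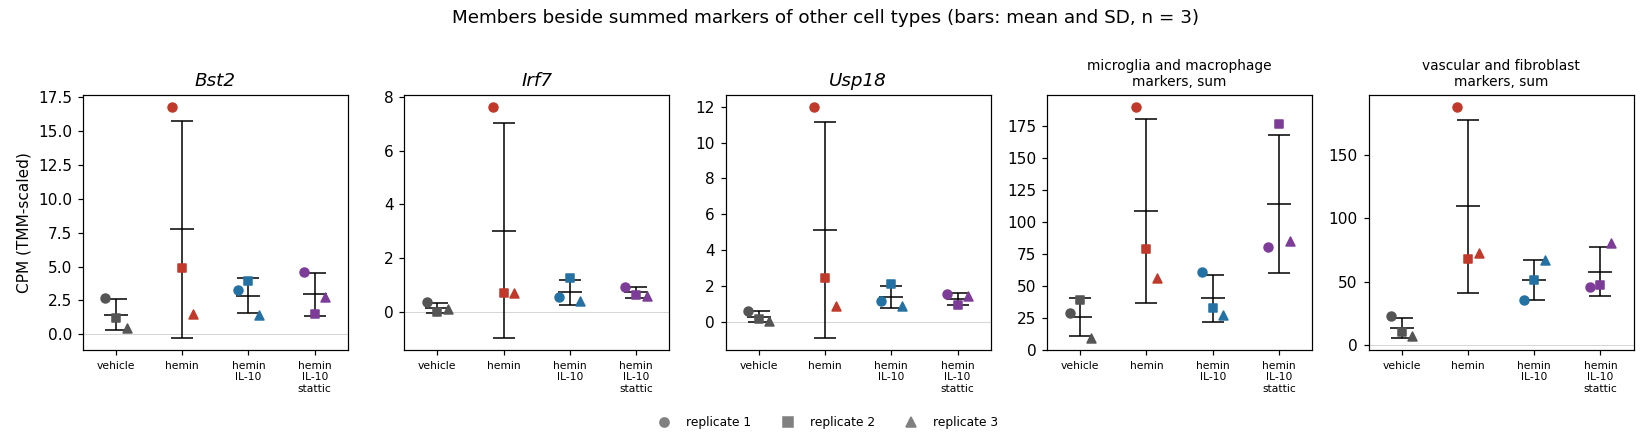
Bst2, Irf7 and Usp18 beside the summed markers of microglia and macrophages and of vascular cells and fibroblasts, in CPM (vertical axes), by treatment group. Points are libraries, shaped by replicate number, and bars are the mean and SD of 3 libraries. Hemin replicate 1 is highest in each panel, and stattic replicate 2 has a microglial sum of 176.0 CPM with Bst2 at 1.47 CPM.

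Transcript length also set hemin replicate 1 apart. Relative to vehicle, genes in the shortest of 5 length groups exceeded those in the longest by 0.93 there (difference of median log2 levels), by 1.99 in stattic replicate 3 and by up to 0.45 in the other libraries. Bst2 and Isg15 are short, at 823 and 756 bases listed, with 3.05% and 2.34% of tested genes shorter. Rsad2 and Ifit2 are long, at 3785 and 3950 bases. With counts adjusted for length, Usp18 rose with hemin, by 3.71 (adjusted p = 0.0152), Rsad2 by 3.54 (adjusted p = 0.0377), and Ifit2 fell by 1.36 (adjusted p = 0.0486). The difference in Bst2 was 1.86 (adjusted p = 0.146), and 2.4 without this adjustment. In stattic replicate 3, where the length trend was steepest, Bst2 was at 2.76 CPM and Isg15 at 0.960 CPM. The part of transcript length in the levels of hemin replicate 1 was not tested.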

How the data were processed

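RNA-seq was measured in 12 libraries. Total RNA was used for dUTP libraries, read on DNA nanoballs, per the labels' protocols. RSEM, Bowtie2, Bowtie, HISAT, StringTie, TopHat, Cufflinks and CASAVA appear in the submitters' processing notes without versions or roles. The sources used here give neither the genome build nor whether counting used strand. It is therefore not known whether reads of overlapping or antisense genes were kept apart. Per the file headers, the deposited columns are the expected count (estimated, not normalised), the FPKM and the transcript length of a gene. Genes absent from a file were taken as 0, and no sample column was left unused.

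The expected counts were rounded, and genes were kept by filterByExpr (minimum count 10), which left 13967 of 18876 genes. They were scaled by TMM and fitted with edgeR 4.0.16 (R 4.3.3, robust quasi-likelihood, 1 mean per group). Totals of 9404448 to 10266653 set the counting precision. Alternatives used DESeq2 1.42.0, limma 3.58.1 (voom, and log2(FPKM + 1) or log2(FPKM + 0.1) with a minimum of 1 FPKM in 3 libraries), other scalings, no filter, length offsets over 20 length bins, only the groups compared, a replicate block, and each library left out. Leaving out 2 libraries together, and the fit with no filter and without hemin replicate 1, were added after the data were seen. Scripts were tested on simulated data.

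The members, the pathway and marker lists and the rules were chosen with earlier results of these data known. The text names all members, 12 pathway genes always (1 of them is not reported here), and up to 4 called genes of each pathway group per comparison with the smallest adjusted p. It also names the 5 genes most correlated with the members among those with a mean of at least 5 CPM. Ifi35 ranks below these among the called effectors and is named so that the count is complete, and Ifi27, Oasl2, Ccl5 and single markers were chosen after their values were seen.

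Same-numbered libraries deviated together between hemin with IL-10 and hemin (r = 0.37, 0.17 and 0.61 for replicates 1, 2 and 3), so their numbers were taken as paired there, from the data and not from the labels. In the other comparisons at least 1 pair was not above 0.1. With the replicate block, 0 members were called between hemin with IL-10 and hemin, the same as without it. No pair of replicates agreed within sampling noise. Promoter windows come from RefSeq (GRCm38.p6).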

Additional observations from a re-analysis of the deposited data

How the results depend on the processing

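With 3 libraries per group and low counts, member calls were near the threshold, and the cause of the changes below was not tested. Leaving out 1 library at a time gave 0 to 4 members called between hemin and vehicle (with Irf7 where it passed the filter, and 0 to 3 of the 7 tested with all libraries), 0 to 2 between hemin with IL-10 and vehicle, and 1 to 2 with stattic against vehicle. For the other pathway genes these ranges were 7 to 20, 3 to 16 and 5 to 17. No left-out library gave a called member when IL-10 or stattic was the agent added. For hemin against vehicle, 1 member was called by limma on log2(FPKM + 0.1) and 1 on log2(FPKM + 1) with no filter. For hemin with IL-10 against vehicle, 1 was called by limma-voom, 1 on log2(FPKM + 1) and 1 on that scale with no filter. With stattic against vehicle, 2 were called by DESeq2, 2 with the replicate block and 2 when the pair of libraries with the strongest length trend was left out (hemin replicate 1 and stattic replicate 3). For other pathway genes, DESeq2 called 26 with hemin and 16 with IL-10, the replicate block 16 with IL-10 and 20 with stattic, leaving out that pair 17 with IL-10, and a fit of only the groups compared 5 with stattic.

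With the replicate block, Bst2 was called with hemin (2.21, adjusted p = 0.0167), Usp18 with IL-10 (2.42, adjusted p = 0.0497) and Rsad2 with stattic (2.95, adjusted p = 0.0181), each against vehicle, where the numbers were not taken as paired. It changed no other member's call. Same-numbered libraries correlated at 0.15, 0.08 and 0.32 between hemin and vehicle, at 0.05, 0.19 and 0.37 with IL-10, at 0.20, 0.10 and 0.28 with stattic, and at 0.64, -0.05 and 0.48 between stattic and IL-10.

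No called change reversed its direction. Uncalled log2 differences did, when 1 library was left out. For IL-10 added to hemin, Ifit3 ranged from -1.24 to 0.06 and Rsad2 from -0.00084 to 1.12. For stattic added to both, Ifit2 ranged from -0.61 to 0.02, Ifit3 from -0.39 to 0.44, Usp18 from -0.32 to 0.31 and Bst2 from -0.43 to 0.38. Against vehicle, Ifit3 ranged from -0.23 to 1.15 and Irf9 from -0.88 to 0.65 with IL-10, and Ifit3 from -0.12 to 1.12, Irf1 from -0.38 to 0.22 and Irf9 from -0.17 to 1.36 with stattic. Without that same pair of libraries, Ifit3 was 0.07 for IL-10 added to hemin and 0.08 for stattic added. By limma-voom Ifit3 was 0.15 for stattic added, and with length offsets it was -0.05 for stattic against vehicle. For stattic added, Bst2 was -0.05 by library totals, -0.05 on log2(FPKM + 1) with or without a filter, -0.07 on log2(FPKM + 0.1) and -0.29 with length offsets.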
